A study of Mus musculus with 35 samples.

Results

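Striatal interneurons were followed through 10 transcripts that mark them, *Pvalb*, *Sst*, *Npy*, *Nos1*, *Chat*, *Slc5a7*, *Slc18a3*, *Calb2*, *Th* and *Gad2*, chosen by name from the 22099 genes of a striatal RNAseq table. All 10 passed the filter on low counts that kept 17639 genes for testing. The table covers 35 female C57BL6/J mice aged 299 to 304 days, with 1 library per mouse. Wild-type (*Htt*+/+) mice formed 3 groups, 6 given saline, 5 given control ASO and 6 given *Htt* ASO. *Htt*Q111/+ mice, which carry an expanded CAG repeat in 1 copy of their own *Htt* gene, formed the same 3 groups with 6 mice in each. An ASO is an antisense oligonucleotide, a short synthetic strand that lowers the transcript it pairs with. Both ASOs were given weekly into the abdomen at 50 mg/kg from 2 to 10 months of age, with saline given at 4 µL/g, a route chosen to reach peripheral organs. All mice were perfused with saline, and the right hemistriatum gave the RNA in 34 of them. The label of the other, an *Htt*+/+ mouse on *Htt* ASO, names the left.

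Most striatal neurons are GABAergic medium spiny neurons, which project out of the striatum. Interneurons are a small minority that act locally. Fast-spiking cells hold parvalbumin (*Pvalb*), a second GABAergic class releases somatostatin (*Sst*) and neuropeptide Y (*Npy*) and makes nitric oxide (*Nos1*), and large cholinergic cells make, load and recycle acetylcholine (*Chat*, *Slc18a3*, *Slc5a7*). Smaller GABAergic groups hold calretinin (*Calb2*) or tyrosine hydroxylase (*Th*), the rate-limiting enzyme of dopamine synthesis. *Gad2* encodes a GABA-synthesising enzyme that medium spiny neurons express too, so it is not particular to interneurons. In Huntington's disease, medium spiny neurons are the cells chiefly lost, and the question put to these data was how far transcripts of each interneuron class differed with the *Htt*Q111/+ genotype.

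Total counts per mouse ran from 32200158.5 to 38641924.5, and the lowest count of any of the 10 genes in any mouse was 65. The transcript that *Htt* ASO targets, listed as *Hdh*, was lower in *Htt*Q111/+ mice (log2 fold change −0.23, limma adjusted p = 0.00100) and did not pass the threshold between *Htt* ASO and control ASO (−0.077, 95% interval −0.22 to 0.062, limma adjusted p = 0.967). The tissue label was checked on a list of 10 medium spiny neuron genes, whose summed level was between 5068 and 8829 CPM (read counts scaled to the TMM-adjusted library total) in every mouse. Choroid plexus genes summed to between 15.2 and 1526 CPM, and their list had its largest correlation with *Calb2* (r = 0.32 over 35 mice, from deviations from group means). Larger ones were found for the pallidal list with *Pvalb* (r = 0.76), *Slc18a3* (r = 0.55) and *Chat* (r = 0.49), the thalamic list with *Calb2* (r = 0.50) and *Pvalb* (r = 0.46), the cortical list with *Sst* (r = 0.44) and the neuroblast list with *Pvalb* (r = −0.44). The part of such admixed tissue in the results was not tested. In bulk RNA, fewer cells of a type and less RNA per cell cannot be told apart.

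The 10 genes spanned a wide range of levels. Per kilobase of annotated exon, *Sst* (110 CPM per kb) and *Gad2* (102 CPM per kb) were highest, followed by *Npy* (53.9 CPM per kb) and *Pvalb* (20.0 CPM per kb). The cholinergic genes came next, *Slc5a7* at 8.58, *Chat* at 5.24 and *Slc18a3* at 3.06 CPM per kb. *Nos1* (2.56 CPM per kb), *Th* (2.38 CPM per kb) and *Calb2* (1.55 CPM per kb) were lowest. Exon lengths came from the GENCODE M21 annotation (GRCm38), which is later than the authors' mm9, so the order of neighbours in this list is approximate. *Slc18a3* is annotated as a single exon inside *Chat* on the same strand, and *Nos1* and *Chat* each overlap an antisense gene. The libraries were stranded, and reads shared by several transcripts were apportioned by RSEM.

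Spread between mice also differed by gene. The residual SD around the 6 group means, on the log2 scale, was 0.070 for *Gad2*, 0.083 for *Npy*, 0.10 for *Sst*, 0.13 for *Slc5a7* and 0.14 for *Chat*, against a median of 0.12 over all tested genes. It was 0.18 for *Slc18a3*, 0.20 for *Th*, 0.28 for *Calb2*, 0.29 for *Nos1* and 0.42 for *Pvalb*. A genotype difference of a given size could therefore be told from the spread far more readily for *Sst* than for *Pvalb*.

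**Figure D1:**
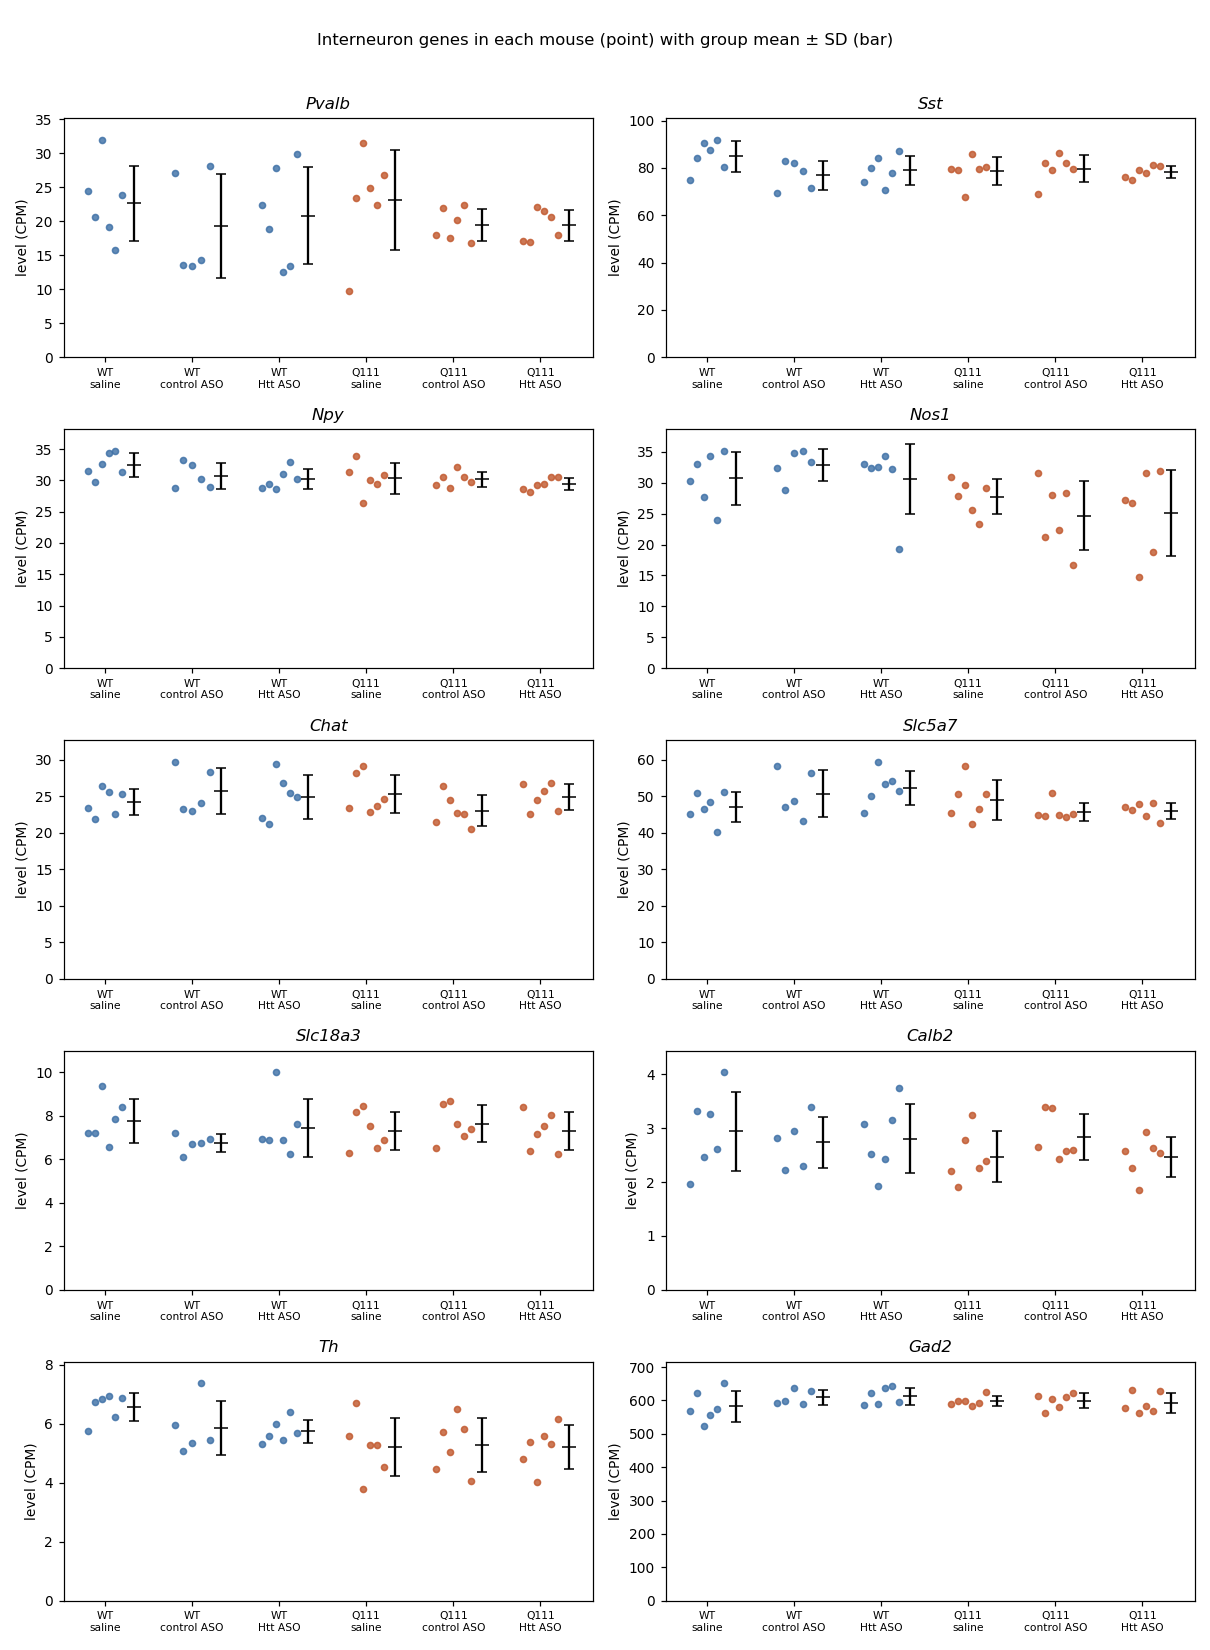
Level of each of the 10 genes in CPM (vertical axis, from 0) in the 6 groups, with 1 point per mouse (blue, Htt+/+; orange, HttQ111/+) and the group mean ± SD in black. Nos1 and Th sit lower in HttQ111/+ mice on average with overlapping ranges, and Pvalb runs from 9.75 to 31.5 CPM among HttQ111/+ mice.

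Over the 3 treatments, levels of *Nos1* and *Th* were lower with the *Htt*Q111/+ genotype, and the other 8 genes did not pass the test. Thus 2 of the 10 were called, both lower, while 39.8% of all tested genes were called and 18.0% were called lower. The median log2 fold change of the 10 was −0.041, and the median of all 17639 tested genes was 0.0037. Their median absolute change was 0.041 against 0.089 over all tested genes. The p-values measure the spread between these mice, and each comes from limma after voom with Benjamini-Hochberg adjustment over all tested genes.

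*Nos1* encodes neuronal nitric oxide synthase, which makes nitric oxide from arginine. On saline, *Nos1* ran from 24.0 to 35.2 CPM with a median of 31.7 in *Htt*+/+ mice and from 23.3 to 30.9 CPM with a median of 28.6 in *Htt*Q111/+ mice. On control ASO, the 5 *Htt*+/+ mice had 28.8, 32.3, 33.4, 34.8 and 35.2 CPM, and the 6 *Htt*Q111/+ mice ran from 16.6 to 31.6 CPM with a median of 25.2. On *Htt* ASO, the range was 19.2 to 34.4 CPM (median 32.5) in *Htt*+/+ mice and 14.8 to 31.9 CPM (median 27.0) in *Htt*Q111/+ mice. The genotypes overlapped under every treatment, and the medians were lower in *Htt*Q111/+ mice under each. The mean was 31.4 ± 4.30 CPM in the 17 *Htt*+/+ mice and 25.9 ± 5.25 CPM in the 18 *Htt*Q111/+ mice (± SD). *Nos1* fell by 0.30 on the log2 scale (standard error 0.092, 95% interval −0.49 to −0.11, limma adjusted p = 0.00868), to 81.3% of the *Htt*+/+ level.

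The lowest *Nos1* level among *Htt*+/+ mice, 19.2 CPM, belonged to the mouse whose sample was labelled as the left hemistriatum. That mouse was also the lowest *Htt*+/+ mouse in the genes named below as nearest to *Nos1*. Without that mouse the log2 fold change of *Nos1* was −0.35 (limma adjusted p = 0.00100). Sample titles carry the letter L and a number from 3 to 8, whose meaning the labels do not state. In the 5 L numbers that held both genotypes, *Nos1* was lower in *Htt*Q111/+ mice each time, by between 0.039 and 0.59 on the log2 scale. These were simple differences of means of 2 to 4 mice per genotype, with treatments not matched within a number. The number 7 held 6 *Htt*Q111/+ mice and no *Htt*+/+ mouse, so number and genotype cannot be told apart there.

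*Th* gave the other call. On saline, *Th* ran from 5.75 to 6.96 CPM with a median of 6.80 in *Htt*+/+ mice and from 3.80 to 6.71 CPM with a median of 5.29 in *Htt*Q111/+ mice. On control ASO, the 5 *Htt*+/+ mice had 5.08, 5.33, 5.47, 5.97 and 7.38 CPM, and *Htt*Q111/+ mice ran from 4.07 to 6.51 CPM with a median of 5.39. On *Htt* ASO, the range was 5.33 to 6.40 CPM (median 5.64) in *Htt*+/+ mice and 4.02 to 6.18 CPM (median 5.36) in *Htt*Q111/+ mice. The ranges overlapped under every treatment, although the lowest *Htt*Q111/+ mouse was below every *Htt*+/+ mouse in each. The mean was 6.07 ± 0.69 CPM in the 17 *Htt*+/+ mice and 5.23 ± 0.83 CPM in the 18 *Htt*Q111/+ mice (± SD). *Th* fell by 0.22 on the log2 scale (standard error 0.067, 95% interval −0.36 to −0.088, limma adjusted p = 0.00729), to 85.7% of the *Htt*+/+ level. Within the 5 L numbers with both genotypes, *Th* was lower in *Htt*Q111/+ mice each time, by between 0.054 and 0.49. The means were again of 2 to 4 mice, with treatments not matched.

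The peptides of the same class as *Nos1* stayed close to their *Htt*+/+ levels. *Sst* ran from 69.6 to 91.8 CPM (median 80.3) in *Htt*+/+ and from 67.8 to 86.1 CPM (median 79.5) in *Htt*Q111/+ mice, at 98.5% of the *Htt*+/+ level (95% interval 93.9 to 103%, limma adjusted p = 0.639). *Npy* ran from 28.6 to 34.7 CPM (median 31.1) in *Htt*+/+ and from 26.4 to 33.9 CPM (median 29.9) in *Htt*Q111/+ mice, at 96.4% of the *Htt*+/+ level (95% interval 92.6 to 100.3%, limma adjusted p = 0.137). Neither interval reached the change fitted for *Nos1*. Without the 6 mice of L number 7, *Npy* passed the threshold (log2 fold change −0.083, limma adjusted p = 0.0385).

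*Chat*, which synthesises acetylcholine, ran from 21.2 to 29.8 CPM (median 24.9) in *Htt*+/+ and from 20.5 to 29.1 CPM (median 24.1) in *Htt*Q111/+ mice, at 98.0% of the *Htt*+/+ level (95% interval 91.8 to 105%, limma adjusted p = 0.655). The vesicular transporter gene *Slc18a3* ran from 6.13 to 10.0 CPM (median 6.95) and from 6.24 to 8.68 CPM (median 7.46), with a log2 fold change of 0.024 (95% interval −0.095 to 0.14, limma adjusted p = 0.781). The choline transporter gene *Slc5a7* ran from 40.1 to 59.5 CPM (median 50.1) and from 42.3 to 58.1 CPM (median 45.7). Its log2 fold change was −0.089 (95% interval −0.17 to −0.0035, unadjusted p = 0.0418, limma adjusted p = 0.0911). *Slc5a7* passed the threshold when any of 4 mice was left out, namely *Htt*+/+ saline replicate 5, *Htt*+/+ control ASO replicate 4, *Htt*+/+ *Htt* ASO replicate 1 or *Htt*Q111/+ saline replicate 3 (limma adjusted p = 0.0319 to 0.0370).

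*Pvalb*, a calcium buffer of fast-spiking cells, had means of 21.0 ± 6.50 CPM in the 17 *Htt*+/+ mice and 20.6 ± 4.70 CPM in the 18 *Htt*Q111/+ mice (± SD). Its log2 fold change was 0.016 with a 95% interval of −0.26 to 0.29 (limma adjusted p = 0.941), so a change to anywhere between 83.4% and 123% of the *Htt*+/+ level could not be told from none. *Calb2*, a related calcium buffer, ran from 1.92 to 4.03 CPM (median 2.82) in *Htt*+/+ and from 1.85 to 3.40 CPM (median 2.57) in *Htt*Q111/+ mice (log2 fold change −0.12, 95% interval −0.31 to 0.073, limma adjusted p = 0.342). *Gad2* was 601 ± 34.5 CPM (SD, n = 17) and 596 ± 22.1 CPM (SD, n = 18), at 99.2% of the *Htt*+/+ level (95% interval 96.0 to 102%, limma adjusted p = 0.729).

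**Figure D2:**
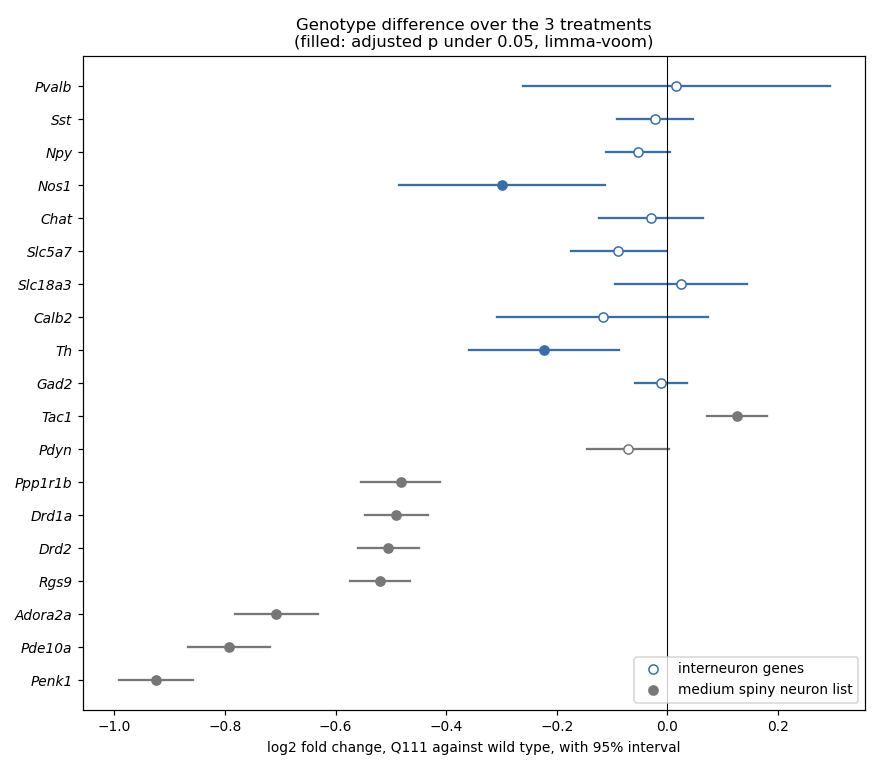
Log2 fold change of HttQ111/+ against Htt+/+ mice over the 3 treatments (horizontal axis) with its 95% interval for the 10 interneuron genes (blue) and 9 of the medium spiny neuron genes (grey), filled where the limma adjusted p was under 0.05. Of the interneuron genes only Nos1 and Th are filled, while 8 of the 9 medium spiny neuron genes are, 7 of them lower.

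The medium spiny neuron list gave a scale for these values. It was chosen with its behaviour in these mice known and is given as a description. Of its 10 genes, 8 fell, among them *Penk1*, the enkephalin precursor, by 0.92, *Pde10a* by 0.79, *Adora2a* by 0.71 and *Rgs9* by 0.52 on the log2 scale, while *Tac1*, the substance P precursor, rose by 0.13 and *Pdyn* did not pass the test (limma adjusted p = 0.118). The median was −0.50, and 18.0% of all tested genes were called lower. *Ppp1r1b*, which encodes the dopamine-regulated phosphatase inhibitor DARPP-32, went from 1664 ± 142 CPM (SD, n = 17) to 1186 ± 80.1 CPM (SD, n = 18), a log2 fold change of −0.48 (limma adjusted p = 3.71e-13).

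Set against *Ppp1r1b* in the same mouse, the log2 ratio differed between genotypes by 0.46 for *Sst* (95% interval 0.39 to 0.53), 0.45 for *Chat* (0.32 to 0.58), 0.49 for *Pvalb* (0.17 to 0.82), 0.27 for *Th* (0.12 to 0.41) and 0.18 for *Nos1* (−0.060 to 0.43). These ratios are given with no test, since the fall of *Ppp1r1b* alone would raise the ratio of any gene that held its level. Of all 17639 tested genes, 97.3% had a log2 fold change above that of *Ppp1r1b*, so ratios above 0 are not particular to interneuron genes.

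Single transcripts of different classes were also set against each other (*Pvalb*, *Sst*, *Chat*, *Calb2* and *Th*, 10 pairs), with genotype permuted within treatments (two-sided, 100000 resamples). The log2 ratio of *Sst* to *Th* was higher in *Htt*Q111/+ mice by 0.19 (95% interval 0.063 to 0.33, permutation p = 0.00456, 0.0456 adjusted over the 10 pairs). The ratio of *Chat* to *Th* was higher by 0.19 (95% interval 0.026 to 0.35, permutation p = 0.0268, 0.134 adjusted over the pairs). The other 8 pairs had permutation p of 0.167 or more. The ratio of *Sst* to *Chat* differed by 0.0069 (95% interval −0.13 to 0.14). The intervals of the 4 pairs with *Pvalb* reached from −0.28 at the lowest to 0.57 at the highest. These are contrasts of 2 transcripts and not of classes. *Nos1*, set against the same 5 transcripts after the values were seen, gave other results, and *Sst* among them is of its own class. The log2 ratio of *Nos1* to *Th* differed by −0.082 (95% interval −0.29 to 0.13, permutation p = 0.448, 0.448 adjusted over 5 ratios of *Nos1*). The ratio of *Nos1* to *Sst* differed by −0.28 (95% interval −0.52 to −0.037, permutation p = 0.0265, 0.0663 adjusted) and that of *Nos1* to *Chat* by −0.27 (95% interval −0.49 to −0.048, permutation p = 0.0147, 0.0663 adjusted). Against *Pvalb* it differed by −0.31 (95% interval −0.70 to 0.080, permutation p = 0.105, 0.175 adjusted). Against *Calb2* the difference was −0.18 (95% interval −0.45 to 0.079, permutation p = 0.172, 0.215 adjusted).

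Within single treatments the genotype difference was measured on 11 or 12 mice each. In saline-treated mice 1 of the 10 genes was called, with 17.4% of all tested genes called. That gene was *Th* (log2 fold change −0.35, 95% interval −0.58 to −0.13, limma adjusted p = 0.0239), and the call was lost when *Htt*Q111/+ saline replicate 3 or replicate 6 was left out. *Npy* was the other gene with an unadjusted p under 0.05 on saline (−0.097, 95% interval −0.19 to −0.00013, limma unadjusted p = 0.0497, adjusted p = 0.173). In control ASO-treated mice limma called 0 of the 10 (18.5% of all tested genes were called). *Nos1* had the smallest p (−0.44, 95% interval −0.77 to −0.11, limma adjusted p = 0.0568) and was the 1 gene with an unadjusted p under 0.05, and edgeR and DESeq2 called 0 as well. In *Htt* ASO-treated mice limma and edgeR called 0 and DESeq2 called 1, *Slc5a7*, with 21.2% of all tested genes called by limma. There *Slc5a7* had a log2 fold change of −0.18 (95% interval −0.32 to −0.035, limma adjusted p = 0.0699), the 1 unadjusted p under 0.05, and *Nos1* −0.32 (limma adjusted p = 0.156).

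**Figure D3:**
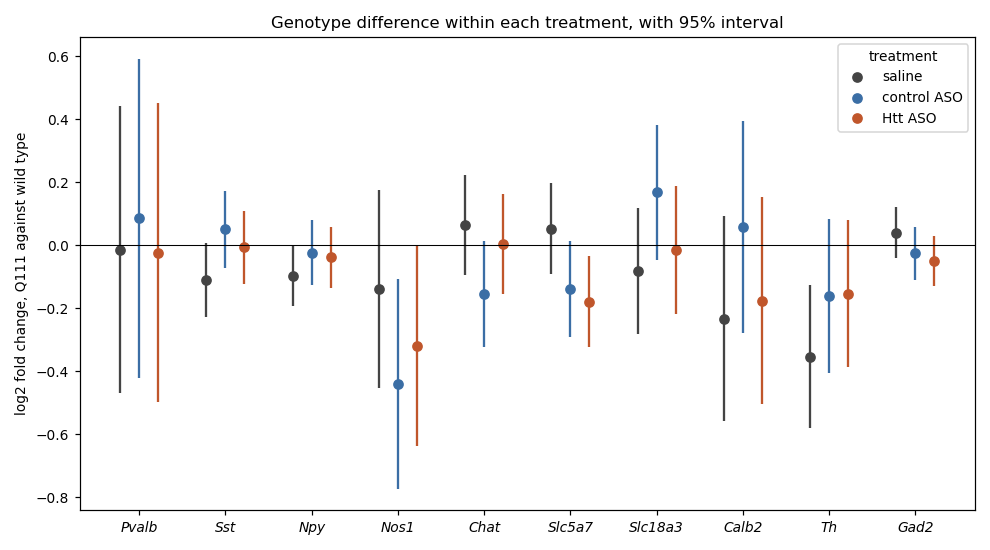
Log2 fold change of HttQ111/+ against Htt+/+ mice (vertical axis) with its 95% interval for each of the 10 genes, in mice given saline (grey), control ASO (blue) or Htt ASO (orange). Nos1 and Th lie below 0 under all 3 treatments, and the 3 intervals of each gene overlap.

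Whether these genotype differences changed with treatment was tested itself. The interaction of genotype with treatment called 0 of the 10 genes by limma, edgeR and DESeq2, and 0 had an unadjusted p under 0.05 (0% of all tested genes were called). In the single contrast of *Htt* ASO with saline, the genotype difference of *Slc5a7* was lower on *Htt* ASO by 0.23 (95% interval −0.44 to −0.027, unadjusted p = 0.0276, limma adjusted p = 0.850). For *Th* the change in that contrast was 0.20 (95% interval −0.13 to 0.53).

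Treatment itself was compared over both genotypes, with each pair of comparisons sharing a group of mice. *Htt* ASO against control ASO called 0 of the 10 genes by limma, edgeR and DESeq2, 0 at an unadjusted p under 0.05, with 0.935% of all tested genes called. Log2 fold changes of the 10 ran from −0.093 (*Calb2*) to 0.053 (*Pvalb*), and the narrowest interval was that of *Gad2*, −0.064 to 0.053. *Htt* ASO against saline called 0 by all 3 tools (1.47% of all tested genes), with changes from −0.17 (*Pvalb*) to 0.035 (*Slc5a7*). *Npy* was the 1 gene with an unadjusted p under 0.05 there (−0.072, 95% interval −0.14 to −0.0034, limma adjusted p = 0.508). Control ASO against saline called 0 by all 3 tools and 0 at an unadjusted p under 0.05 (0% of all tested genes), with changes from −0.23 (*Pvalb*) to 0.059 (*Calb2*). For *Sst*, the intervals of the 3 treatment comparisons stayed between −0.15 and 0.094.

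Other genes were read from lists drawn up for each class from textbook knowledge, and not every member is particular to the class. None of the 12 lists held a gene called between *Htt* ASO and control ASO by limma, with 0.935% of all tested genes called. Genotype values over all treatments follow. The share beside which each list's count stands is 39.8% of all tested genes called by genotype, and 18.0% called lower. Of 9 tested cholinergic genes (10 listed), 1 rose, 2 fell and 6 did not pass (median log2 fold change −0.023). *Isl1*, a transcription factor of the cholinergic lineage that striatal projection neurons share, rose from 14.9 to 19.0 CPM (0.35, limma adjusted p = 1.27e-11). *Tacr1*, the substance P receptor, fell by 0.098 (limma adjusted p = 0.00287) and *Zic4* by 0.20 (limma adjusted p = 0.0223). *Slc17a8*, the vesicular glutamate transporter gene of these cells, had a value of −0.042 (limma adjusted p = 0.406).

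Of 4 tested genes of the *Sst*/*Npy*/*Nos1* class (5 listed), 2 fell and 2 did not pass (median −0.15). *Rbp4*, a retinol carrier, fell from 14.7 to 9.18 CPM (−0.68, limma adjusted p = 4.21e-14), and the other was *Tacr1*, which both lists hold. *Chodl*, which marks the long-range nitric oxide neurons, had a value of 0.13 (limma adjusted p = 0.206) and *Crhbp* −0.19 (limma adjusted p = 0.122). The summed level of this list had r = −0.29 with *Sst*, 0.096 with *Npy* and 0.18 with *Nos1* over mice. That sum was mostly *Tacr1* (mean 41.5 CPM), ahead of *Rbp4* (11.9), *Chodl* (2.23) and *Crhbp* (1.72), so it says little of the class as a whole. The cholinergic list had r = 0.86 with *Chat* and the *Pvalb* list, in which *Kcnc1* (mean 135 CPM) weighed most, 0.83 with *Pvalb*. Across classes, the cholinergic list had r = 0.56 with *Pvalb* and −0.16 with *Sst*. The *Pvalb* list had 0.52 with *Slc18a3*, 0.49 with *Chat* and −0.27 with *Sst*. Whether the falls of *Rbp4* and *Tacr1* belong to the *Sst* class was not tested. Of 7 *Pvalb* interneuron genes, *Kit*, a receptor tyrosine kinase, fell by 0.082 (limma adjusted p = 0.00637) and 6 did not pass (median −0.063), among them the fast potassium channel gene *Kcnc1* (−0.063, limma adjusted p = 0.140), *Kcnab3* (0.16, limma adjusted p = 0.202) and *Pthlh* (−0.078, limma adjusted p = 0.313).

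Of 6 tested genes of the *Calb2*/*Htr3a* and *Th* groups (7 listed), *Crh*, the corticotropin-releasing peptide, fell from 0.64 to 0.25 CPM (−1.32, limma adjusted p = 0.000123), *Ddc*, which converts L-DOPA to dopamine, rose by 0.14 (limma adjusted p = 0.0450), and 4 did not pass (median 0.028), among them the peptide genes *Vip* (−0.29, limma adjusted p = 0.0888) and *Cck* (0.13, limma adjusted p = 0.508). *Th* and *Ddc* encode enzymes of successive steps in dopamine synthesis, and whether the same cells hold both was not tested. The summed level of this list, in which *Ddc* (mean 12.7 CPM) weighed most, had r = −0.17 with *Th* and 0.12 with *Calb2* over mice. Of 9 lineage regulators, *Satb1* rose by 0.21 (limma adjusted p = 0.000515) and *Dlx5* by 0.23 (limma adjusted p = 0.000112), and 7 did not pass. *Lhx6*, which specifies the *Pvalb* and *Sst* lineages and is named here after its value was seen, had 0.030 (limma adjusted p = 0.494). Of 4 genes of GABA synthesis and transport, 2 rose, with *Gad1*, a GABA-synthesising enzyme gene, up by 0.086 (limma adjusted p = 7.03e-05), while *Slc32a1* (0.090, limma adjusted p = 0.0513) and *Abat* (0.00083, limma adjusted p = 0.972) did not pass.

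Lists for neighbouring tissue were read beside these. Of 6 cortical excitatory genes 0 were called by limma (0 at an unadjusted p under 0.05), with a summed level of 8.02 to 72.4 CPM in *Htt*+/+ and 7.14 to 73.6 CPM in *Htt*Q111/+ mice. The largest of them was *Neurod6* (−0.37, limma adjusted p = 0.370), followed by *Slc17a7* (−0.32), *Tbr1* (−0.25) and *Slc30a3* (−0.21). Of 4 thalamic genes *Prkcd* fell by 0.14 (limma adjusted p = 0.00769), with a summed level of 19.0 to 29.5 and 18.8 to 23.9 CPM, and *Lef1* (−0.13), *Slc17a6* (−0.40) and *Tcf7l2* (0.032) did not pass. Of 5 neuroblast genes *Dcx* rose by 0.25 (limma adjusted p = 0.00379), with a summed level of 27.3 to 59.7 and 40.4 to 65.9 CPM, and *Dlx2* (0.16), *Igfbpl1* (0.15) and *Sp8* (−0.084) did not pass. Of 2 pallidal genes (1.21 to 4.44 and 1.06 to 4.31 CPM) and 3 tested choroid plexus genes (21.1 to 1526 and 15.2 to 119 CPM) limma called 0. *Ttr*, *Folr1* and *Kl* of the choroid plexus had −0.70, −0.28 and −0.19, and the pallidal *Npas1* −0.049. *Gbx1*, the other pallidal gene, had an unadjusted p = 0.0356 (−0.32, limma adjusted p = 0.0801). Their part in the genotype differences was not tested.

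Mice differed among themselves within groups, and the genes of a class could be asked whether they deviated together. Deviations from the 6 group means were correlated over the 35 mice for all 45 pairs of genes, and the 6 pairs within a class were tested by permutation within groups, with Benjamini-Hochberg adjustment over the 6. *Chat* followed *Slc5a7* (Pearson r = 0.69, permutation p = 8e-05, adjusted 0.00024; Spearman rho = 0.66, permutation p = 0.00025, adjusted 0.00075) and *Slc18a3* (r = 0.67, permutation p = 4e-05, adjusted 0.00024; rho = 0.61, permutation p = 0.00021, adjusted 0.00075). Without the 2 mice farthest from the median of *Chat*, both stayed at r = 0.62. *Slc5a7* and *Slc18a3* were less tightly related (r = 0.41, permutation p = 0.0191, adjusted 0.0229; rho = 0.39, permutation p = 0.0268, adjusted 0.0322; r = 0.34 without 2 mice).

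*Sst* followed *Npy* (r = 0.54, permutation p = 0.00429, adjusted 0.00858; rho = 0.58, permutation p = 0.00149, adjusted 0.00298; r = 0.44 without 2 mice). *Nos1*, of the same class, ran against *Sst* (r = −0.39, permutation p = 0.0114, adjusted 0.0171; rho = −0.40, permutation p = 0.0162, adjusted 0.0243; r = −0.34 without 2 mice). With *Npy* its relation did not pass (r = −0.15, permutation p = 0.332; rho = −0.20, permutation p = 0.225). Between classes, *Pvalb* rose and fell with *Slc18a3* (r = 0.54), *Chat* (r = 0.47) and *Slc5a7* (r = 0.42) and against *Npy* (r = −0.47). *Slc5a7* ran against *Npy* (r = −0.42) and *Sst* (r = −0.41), and *Npy* rose with *Th* (r = 0.41). Pairs between classes were not tested. Relations of this size were not confined to genes of 1 class, since *Pvalb* with *Slc18a3* (r = 0.54) was above *Slc5a7* with *Slc18a3* (r = 0.41). *Calb2* stayed within r = −0.20 and 0.27 of every other gene.

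**Figure D4:**
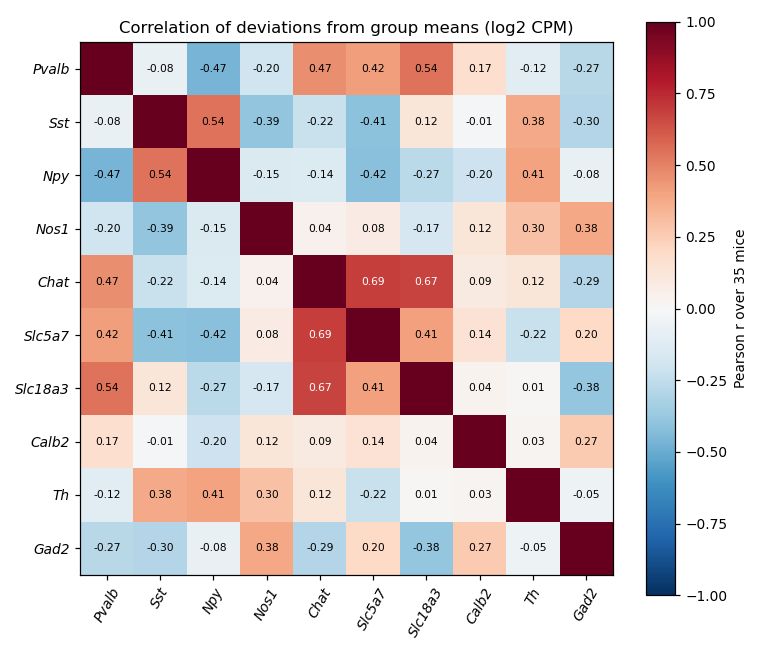
Pearson r between each pair of the 10 genes over 35 mice, from deviations of log2 CPM from the group means, on a colour scale from −1 to 1 with r printed in each square. The cholinergic genes have r of 0.41 to 0.69 with each other, and Pvalb has r of 0.42 to 0.54 with them. Nos1 has negative r with Sst and Npy.

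For each gene named below, the genes (of 15089 averaging 1 CPM or more) whose deviations were most like its own were listed, as a description. For *Pvalb* they were *Kcnab3* (r = 0.94), a potassium channel subunit gene, *Vamp1* (r = 0.94), a synaptic vesicle gene, *Hapln4* (r = 0.93), a perineuronal net gene, and *Kcng4* (r = 0.93). *Pvalb* also rose with the pallidal list (r = 0.76) and fell with the medium spiny neuron list (r = −0.60), and the part of dissection in its spread was not tested. For *Chat* they were *Ecel1* (r = 0.80), *Acly* (r = 0.79), which makes the acetyl-CoA that acetylcholine needs, *Cables2* (r = 0.74) and *Ngfr* (r = 0.73).

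For *Sst* the nearest genes were *Chchd2* (r = 0.78), *Sp9* (r = 0.78), *Cnih2* (r = 0.77) and *Pcbp1* (r = 0.76). For *Npy*, given here with its values known, the nearest were *Snrpg* (r = 0.84) and *Eif3eip* (r = 0.74), closer than *Sst* (r = 0.54). For *Calb2* they were *Slc8a1* (r = 0.70), *Efcab3* (r = 0.65), *AK134400* (r = 0.64) and *Gng2* (r = 0.64), and for *Th* they were *Tmem149* (r = 0.60), *Acad10* (r = 0.58), *Cdc42bpg* (r = 0.58) and *Bphl* (r = 0.58). No gene reached r = 0.7 with *Calb2* or *Th*.

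*Nos1* had by far the most such company, with 439 genes (2.91%) above r = 0.7, against 119 for *Pvalb*, 169 for *Gad2* and 22 for *Sst*. Its nearest genes, looked at after the values were seen, were *D030022P06Rik* (r = 0.94), *Srrm2* (r = 0.93), a splicing factor gene, *Grik3* (r = 0.92) and *Med13l* (r = 0.91). Their own log2 fold changes by genotype were −0.22, −0.0044, −0.076 and −0.071, all of the same sign as that of *Nos1*, and none was called (limma adjusted p = 0.122, 0.948, 0.466 and 0.0946). The left hemistriatum mouse was the lowest *Htt*+/+ mouse in each of these genes, with *Srrm2* at 682 CPM. *Htt*Q111/+ *Htt* ASO replicate 3, labelled right, was the lowest *Htt*Q111/+ mouse in each of them and in *Nos1* (14.8 CPM), with *Srrm2* at 665 CPM. The part of this shared variation in the *Nos1* difference or in these low values was not tested.

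**Figure D5:**
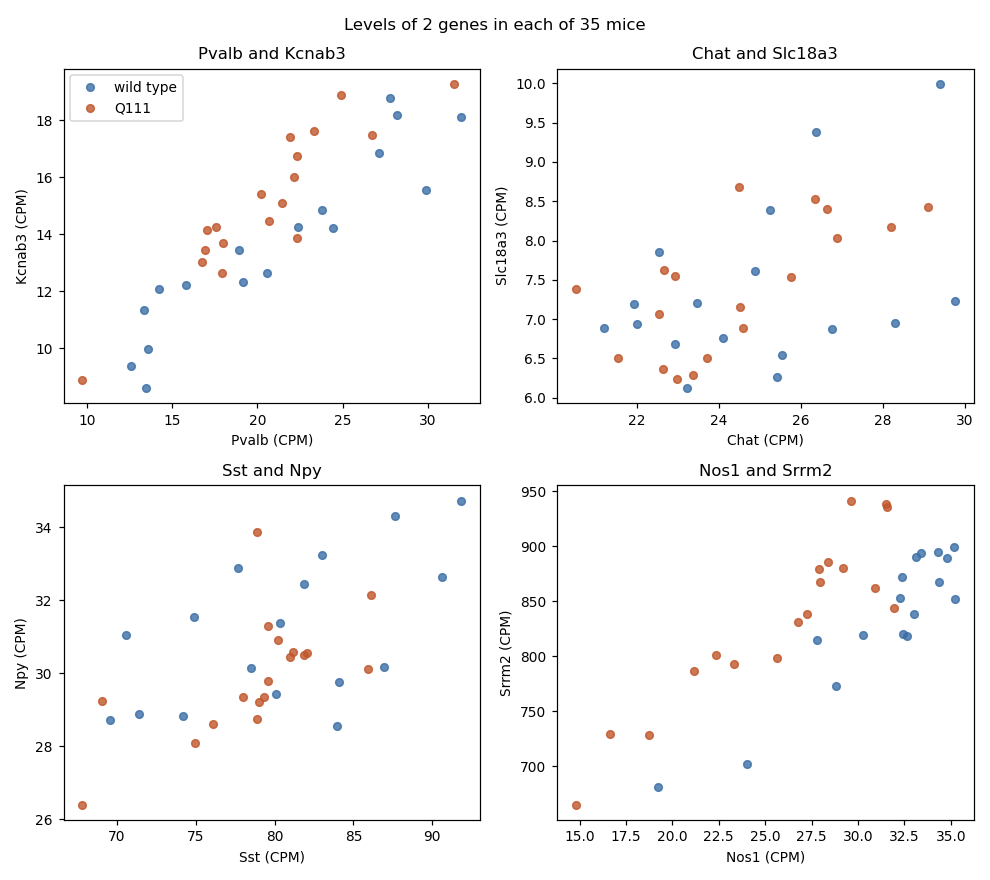
Levels in CPM of 2 genes in each of the 35 mice (blue, Htt+/+, n = 17; orange, HttQ111/+, n = 18) for Pvalb and Kcnab3, Chat and Slc18a3, Sst and Npy, and Nos1 and Srrm2. Pvalb and Kcnab3 lie close to 1 line (r = 0.94 of deviations), and Nos1 and Srrm2 also rise together (r = 0.93).

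*Sst* and *Th* share a promoter element. Promoters of 9 of the 10 genes were matched in RefSeq (GRCm38.p6), all but *Calb2*. The cAMP response element, searched as TGACGTCA, its own reverse complement, in the 250 bases before the start, occurred in these 2 of the 9, and in 508 of 32851 promoters (1.55%). The stretch from 60 to 31 bases before the start is given for both, on the minus strand and 5′ to 3′, with the element in capitals, since 1 of these genes fell with genotype and the other did not pass the test.
*Sst* (chr16:23890875-23890904): cgcctccttggcTGACGTCAgagagagagt
*Th* (chr7:142900026-142900055): gacccagaggggcttTGACGTCAgcctggc
The element begins 48 bases before the start in *Sst* and 45 in *Th*. These starts are those of RefSeq. In the GENCODE M21 annotation used for exon lengths, both genes begin farther upstream, so both stretches lie inside their spans. A match of letters is a description of sequence and does not show that a factor binds there in these cells.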

How the data were processed

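The authors aligned stranded, paired mRNA reads to the mouse transcriptome (mm9) with Bowtie 0.12.9 and deposited expected counts from RSEM 1.1.18, 1 value for each gene and mouse without any scaling; 55.6% of values were whole numbers. In R 4.3.3, genes were kept by filterByExpr over the 6 groups (minimum count 10, minimum total 15), scaled by TMM (edgeR 4.0.16) and tested by limma 3.58.1 after voom with a mean per group (29 residual degrees of freedom, 4.30 prior), Benjamini-Hochberg adjustment over 17639 genes and a threshold of 0.05. The label ASO1 was taken as *Htt* ASO. Ratios and correlations used log2 CPM with a prior count of 2. Median depth was 35538941.25 counts. No 2 mice of a group were duplicates (over 85 pairs, chi-square divided by its degrees of freedom was 3.57 to 16.5). The 10 genes and the lists were chosen with earlier results of these data known. Genes named besides the 10 were *Ppp1r1b*, the 4 of smallest p in each list, and the 4 most correlated with *Pvalb*, *Sst*, *Chat*, *Calb2* and *Th* (some are not reported here). *Htt*, *Tac1*, *Pdyn*, *Lhx6* and the genes nearest *Nos1* and *Npy* were named outside this rule, with their values known. DESeq2 1.42.0, the edgeR quasi-likelihood test (each on rounded counts) and other scalings, filters, covariates and subsets were alternatives. The code was tested on simulated data.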

Additional observations from a re-analysis of the deposited data

Results flagged for a closer look

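In 60 groups, 10 genes in 6 groups of mice, 3 held a mouse far from the others by Dixon's criterion, which chance alone meets in about 1 group in 20. *Nos1* was 19.2 CPM in *Htt*+/+ *Htt* ASO replicate 6, the mouse with the left hemistriatum label, and the next lowest mouse of that group had 32.3 CPM. The same replicate was also the lowest *Htt*+/+ mouse in *Srrm2*, *Med13l*, *Grik3* and *D030022P06Rik*. *Slc5a7* was 50.7 CPM in *Htt*Q111/+ control ASO replicate 3, and the next highest had 45.2 CPM. *Slc18a3* was 10.0 CPM in *Htt*+/+ *Htt* ASO replicate 3, and the next highest had 7.61 CPM. No gene's treatment effect differed between genotypes past the threshold.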

How the results depend on the processing

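*Nos1* and *Th* were called lower in *Htt*Q111/+ mice over all treatments under each of 11 alternatives and in each of 35 fits without 1 mouse, with log2 fold changes over the alternatives of −0.35 to −0.26 for *Nos1* and −0.32 to −0.18 for *Th*; the count of the 10 genes called was 2 or 3. *Slc5a7* joined them with sample quality weights (−0.098, adjusted p = 0.0442). Library totals without TMM moved the median of all genes from 0.0037 to 0.043, and lower calls made up 27.9% of all calls in place of 45.3%. There *Sst* (0.017), *Chat* (0.0097) and *Gad2* (0.027) changed sign without passing the threshold. *Pvalb* changed sign under edgeR (−0.020) and DESeq2 (−0.026), and with the L number as covariate so did *Slc18a3* (−0.018) and *Gad2* (0.0040). Without 1 mouse, *Pvalb* ran from −0.032 to 0.093 by genotype. The cause of these changes was not tested.

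Within treatments, the count went from 0 to 1 on control ASO with *Nos1* under a filter at a mean of 1 CPM, without the left hemistriatum mouse and with only the groups compared. On *Htt* ASO it went from 0 to 1 with *Slc5a7* under DESeq2, sample quality weights and only the groups compared, and with *Nos1* without the left hemistriatum mouse. Without 1 mouse, the count ran from 0 to 1 on saline, from 0 to 1 on control ASO and from 0 to 1 on *Htt* ASO.

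Uncalled treatment differences near 0 changed sign. For *Htt* ASO against control ASO these were *Th* with weights (0.015), *Pvalb* (−0.0070), *Sst* (−0.0044) and *Nos1* (0.0019) without the left hemistriatum mouse, and *Slc18a3* (−0.010) and *Th* (0.054) without L number 7. For *Htt* ASO against saline they were *Chat* with weights (−0.0085), and without L number 7 *Chat* (−0.014), *Slc5a7* (−0.0096) and *Th* (0.018). For control ASO against saline they were *Chat* (0.016) and *Slc5a7* (−0.0011) with the L number as covariate and *Slc5a7* (−0.023) without L number 7. Without 1 mouse, *Htt* ASO against control ASO ran from −0.0070 to 0.13 for *Pvalb*, −0.011 to 0.026 for *Sst*, −0.12 to 0.0093 for *Nos1*, −0.017 to 0.051 for *Slc18a3*, −0.048 to 0.032 for *Th* and −0.015 to 0.0036 for *Gad2*. *Htt* ASO against saline ran from −0.015 to 0.032 for *Chat* and −0.087 to 0.014 for *Calb2*, and control ASO against saline from −0.081 to 0.012 for *Nos1* and −0.020 to 0.035 for *Slc5a7*. A prior count of 0.5 changed the call of no pair of class transcripts, and library totals changed the sign of no tested correlation. The first letters of the mouse names, whose meaning the labels do not state, were used as a block after the data were seen (21 blocks, 8 with more than 1 mouse, limma's common correlation 0.091). That block changed 1 count, from 0 to 1 on control ASO with *Nos1*. With 5 or 6 mice per group, *Pvalb*, *Nos1* and *Calb2* had the least precision. No paired analysis was possible because replicate numbers were given in accession order and so pair no mice across groups.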
